A study of Caenorhabditis elegans with 2 samples.

Results

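The 5 actin genes of Caenorhabditis elegans, act-1, act-2, act-3, act-4 and act-5, were examined for binding of PHA-4 in late embryos, out of 19985 protein-coding genes in the annotation. A gene's window was its body plus 2000 bp upstream, and a peak was assigned to the gene when its summit lay in that window. PHA-4 was measured by chromatin immunoprecipitation followed by sequencing (ChIP-seq) in 1 group, whole embryos of strain OP37 (unc-119(ed3) III; wgIs37), whose inserted transgene provides PHA-4 tagged with eGFP. Both libraries are biological replicates from separate biosamples of pooled sex, and no untagged or mutant group was compared. Whole embryos were used, so a peak cannot be tied to any one of the tissues that carry PHA-4. The authors' relaxed ce11 lists held 5607 peaks for replicate 1, 1729 for replicate 2 and 7768 for both replicates pooled, and their final list held 9. The read depth behind them is unknown. The file listing names the relaxed lists as peaks together with background, and the final list as an optimal set thresholded by the irreproducible discovery rate (IDR). The authors' q was 0.05 or less for 5248 peaks in replicate 1, for 1330 in the pooled list and for none in replicate 2, where the smallest was 0.351.

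PHA-4 is a FoxA-type forkhead transcription factor that specifies the pharynx, the muscular feeding organ, and is also present in the intestine. Actin is the protein of thin filaments in muscle and of the cortical and microvillar skeleton in other cells. The genes act-1, act-2 and act-3 lie side by side on chromosome V, act-4 lies alone on chromosome X, and these 4 encode conventional actins of muscle and other tissues. The gene act-5, on chromosome III, encodes a divergent actin that builds the microvilli of the intestine and the excretory canal.

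Peaks lay at act-4 and across the act-1, act-2, act-3 cluster in replicate 1 and in the pooled list, and none lay at act-5. The window of act-4 held 5 summits in replicate 1 and 4 in the pooled list. The cluster windows together held 6 in each of these lists, and the act-5 window held 0 in each. In replicate 2 the windows of all 5 genes were empty, as they were in the final list. Thus 4 of the 5 genes had a summit in the pooled list, where 30.7% of all protein-coding genes had one, and 4 of the 5 in replicate 1, where the share was 23.8%. In replicate 2 it was 0 of 5 against 8.56%, and in the final list 0 of 5 against 0.055%. The genes, and the contrast of act-4 with the rest, were chosen by peaks, ranks and signals in these same lists. Counts and signals at the genes are therefore descriptions and were not tested, and nothing is read from their distance to the shares of all genes.

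The sequences below show the ground on which the strongest peaks stood. Each runs 80 bases to either side of a summit, on the strand of its gene, in WBcel235 (ce11) coordinates, and none contains annotated exon sequence of an actin gene. Capitals mark matches, on either strand, to the PHA-4 consensus TRTTKRY, where R is A or G, K is G or T and Y is C or T. The first 3 are the act-4 peaks of highest signal, at 84 bp upstream of the gene's start (X:4960457-4960617, plus strand) and at 497 bp and 1886 bp into the gene (X:4961038-4961198 and X:4962427-4962587, plus strand).
act-4 promoter peak: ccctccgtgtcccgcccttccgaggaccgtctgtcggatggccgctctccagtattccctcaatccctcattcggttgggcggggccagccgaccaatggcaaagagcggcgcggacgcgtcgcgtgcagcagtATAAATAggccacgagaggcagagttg
act-4 intron peak at 497 bp: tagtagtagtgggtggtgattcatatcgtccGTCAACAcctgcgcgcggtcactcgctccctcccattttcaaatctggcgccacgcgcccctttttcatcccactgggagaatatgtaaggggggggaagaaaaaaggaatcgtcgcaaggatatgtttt
act-4 intron peak at 1886 bp: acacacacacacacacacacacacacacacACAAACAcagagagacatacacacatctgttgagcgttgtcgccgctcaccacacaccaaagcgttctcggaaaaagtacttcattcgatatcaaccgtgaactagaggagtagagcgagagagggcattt
Of the cluster, the strongest upstream peak of act-3 (V:11075791-11075951, minus strand), the pooled peak upstream of act-2 (V:11078465-11078625, minus strand) and the peak beyond the end of act-1 (V:11082609-11082769, plus strand) are shown.
act-3 upstream peak at 1373 bp: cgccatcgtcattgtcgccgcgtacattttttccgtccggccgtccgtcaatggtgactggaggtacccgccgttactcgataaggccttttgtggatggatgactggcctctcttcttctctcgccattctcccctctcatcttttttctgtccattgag
act-2 upstream peak at 391 bp: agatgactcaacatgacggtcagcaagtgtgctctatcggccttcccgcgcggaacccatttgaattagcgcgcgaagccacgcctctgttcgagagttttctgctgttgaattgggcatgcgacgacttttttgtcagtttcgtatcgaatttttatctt
act-1 downstream peak: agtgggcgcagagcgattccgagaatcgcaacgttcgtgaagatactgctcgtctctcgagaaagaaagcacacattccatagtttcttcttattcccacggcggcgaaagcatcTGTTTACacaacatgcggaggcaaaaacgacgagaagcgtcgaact
The last is the act-5 sequence at the same distance from its start as the act-4 promoter peak (III:13606070-13606230, minus strand), where no list had a peak.
act-5 promoter without a peak: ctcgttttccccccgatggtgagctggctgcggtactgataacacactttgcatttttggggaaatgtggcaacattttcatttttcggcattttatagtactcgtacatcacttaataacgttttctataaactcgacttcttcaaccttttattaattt

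The gene act-4 (WBGene00000066, X:4960621-4964413, plus strand) carried the actin summit of highest signal inside any of the 5 windows. In replicate 1 that summit, 84 bp upstream of the start, had a signal of 9.53, rank 237 and an authors' q of 0.00336. In the pooled list the same base was the summit, with a signal of 8.94, rank 304 and a q of 0.0115. The signal is the authors' peak value against control, without a stated unit or scaling between libraries, so it is read only within a list. For scale, the median signal was 2.995 in replicate 1 and 2.895 in the pooled list. Among protein-coding genes 1.23% had a best replicate 1 rank at least as good as that of act-4, and 1.59% did in the pooled list. Among the strongest 1000 peaks of replicate 1, summits lay at act-4 and act-3, 2 of the 5 genes against 5.12% of all. Among those of the pooled list they lay at act-4 and act-2, 2 of 5 against 5.16%, and among those of replicate 2 at 0 of 5 against 5.02%.

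The other act-4 summits lay inside the gene, most of them in its first intron, which spans 2081 bp of the longer transcript (X:4960719-4962799). The first of these, at 497 bp, had a signal of 7.16 and rank 497 in replicate 1, and 7.4 and rank 478 in the pooled list. The next, at 1886 bp, had 4.83 and rank 1188 in replicate 1, and 5.42 and rank 1014 in the pooled list. This intron summit stands 368 bp upstream of the start of a second, shorter act-4 transcript. Replicate 1 had a further intron summit at 738 bp with a signal of 2.13 and rank 5189, and its peak overlapped the one at 497 bp. The last act-4 summit fell in the coding sequence of exon 2, at 2439 bp in replicate 1 with a signal of 2.2 and rank 5074, and at 2384 bp in the pooled list with 2.69 and rank 4436. The strongest 3 act-4 summits thus stood at identical bases in both lists, which share the replicate 1 reads, and their order by signal was the same. By the authors' pooled q-values those 3 were at 0.05 or less and the exon 2 peak was not (q of 0.505). Just outside the window, a pooled summit 3463 bp upstream of act-4 had a signal of 2.87. In replicate 1 the next summit upstream was 56503 bp away.

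**Figure D1:**
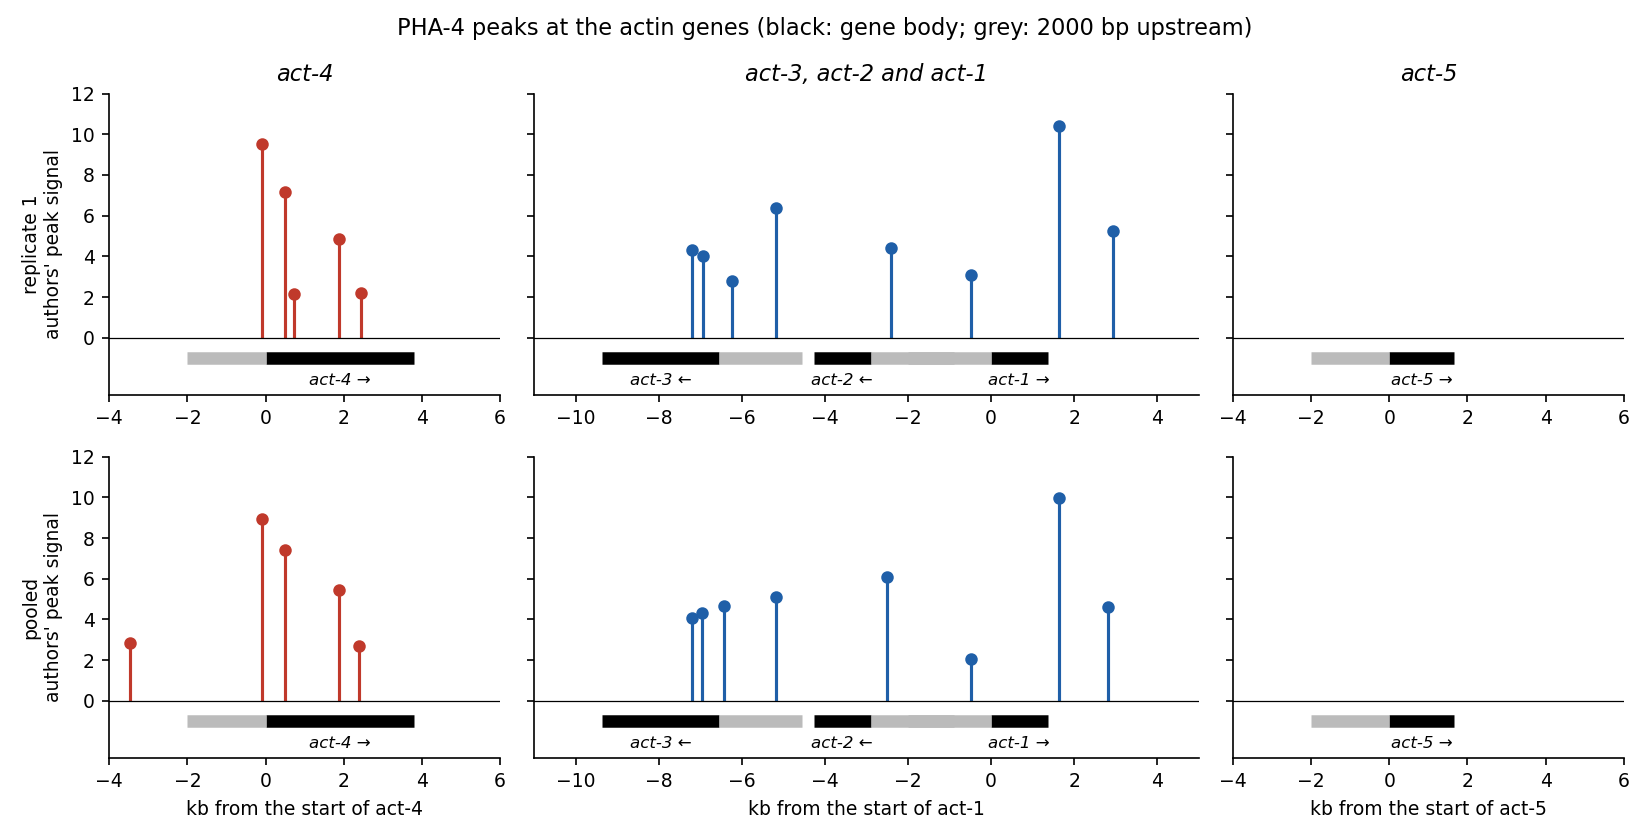
Authors' peak signal (no unit stated) at each summit, against distance in kb from the start of act-4, act-1 or act-5, for replicate 1 (top) and the pooled list (bottom). Black bars are gene bodies, grey bars the 2000 bp upstream and arrows the direction of each gene relative to the one at 0. The highest signal stands at the act-4 start in the left panels and past the end of act-1 in the middle panels, and the act-5 panels are empty. Replicate 2 had no summit in the ranges drawn.

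Each gene of the cluster had a summit in its window, with the most at act-3. From the end of act-3 to 2000 bp beyond act-1 (V:11071690-11084415, 12726 bp) there were 8 summits in replicate 1 and 8 in the pooled list, or 0.629 per kb. Of these, 6 in each list lay in the gene windows and the rest past the end of act-1. The act-4 window, which takes in nothing past the gene's end, had 0.863 per kb in replicate 1 and 0.69 in the pooled list. Over the windows of all protein-coding genes the densities were 0.06 and 0.082 per kb. By the same kind of window act-3 had 4 summits in each list, or 0.832 per kb. The neighbours act-2 and act-1 had 1 each, or 0.296 and 0.297 per kb.

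The gene act-3 (WBGene00000065, V:11071690-11074498, minus strand) had 4 summits in each list. In replicate 1 they stood 1373 bp upstream (signal 6.39, rank 640), 306 bp upstream (2.8, rank 3110), and at 387 bp (4.03, rank 1632) and 642 bp (4.3, rank 1463) into the gene. In the pooled list the matching summits were 1373 bp upstream (5.12, rank 1146), 117 bp upstream (4.67, rank 1378), and at 407 bp (4.34, rank 1623) and 642 bp (4.07, rank 1863). Both summits inside the gene lay in an intron of its longer transcripts, and their peaks overlapped each other. The summit at 642 bp is 592 bp upstream of the start of the shorter act-3 transcript. The strongest act-3 summit was thus the most distant one in both lists. That summit also lies past the end of act-2, at 2283 bp from the start of act-2. A window of 4 or more summits, as at act-3 and act-4, was found for 0.54% of protein-coding genes in replicate 1 and 0.951% in the pooled list.

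The gene act-2 (WBGene00000064, V:11076777-11078154, minus strand) had its summit 491 bp upstream in replicate 1, with a signal of 4.4 and rank 1406. In the pooled list it stood 391 bp upstream, with 6.1 and rank 782. The gene act-1 (WBGene00000063, V:11081052-11082415, plus strand) had its summit 484 bp upstream in both lists. Its signal was 3.09 at rank 2697 in replicate 1 and 2.04 at rank 7580 in the pooled list, where 97.57% of peaks were stronger. By the authors' pooled q-values, the act-2 peak (q of 0.016) and the distant act-3 peak (q of 0.0354) were at 0.05 or less, and the other 4 cluster peaks in windows were not. By that threshold 3 of the 5 actin genes had a pooled peak, against 6.74% of all genes.

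The strongest peak of the whole actin set lay just outside the windows. Its summit was 274 bp past the annotated end of act-1, at 1637 bp from the gene's start (peak at V:11082517-11082860 in replicate 1). It had a signal of 10.39 and rank 168 in replicate 1, and 9.99 and rank 203 in the pooled list with a q of 0.0123. A second summit beyond act-1, at 2927 bp in replicate 1 and 2824 bp in the pooled list, had signals of 5.23 and 4.6. With windows extended by 2000 bp past each gene's end, a choice made after the values were seen, the cluster had 8 pooled summits and act-4 had 4, and 4 of the 5 genes had a summit against 39.2% of all genes. The best cluster rank was then 203, against 304 at act-4, while by upstream window and body it was 782. Which of the cluster and act-4 had the stronger peak therefore turned on whether sequence past act-1 was counted.

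**Figure D2:**
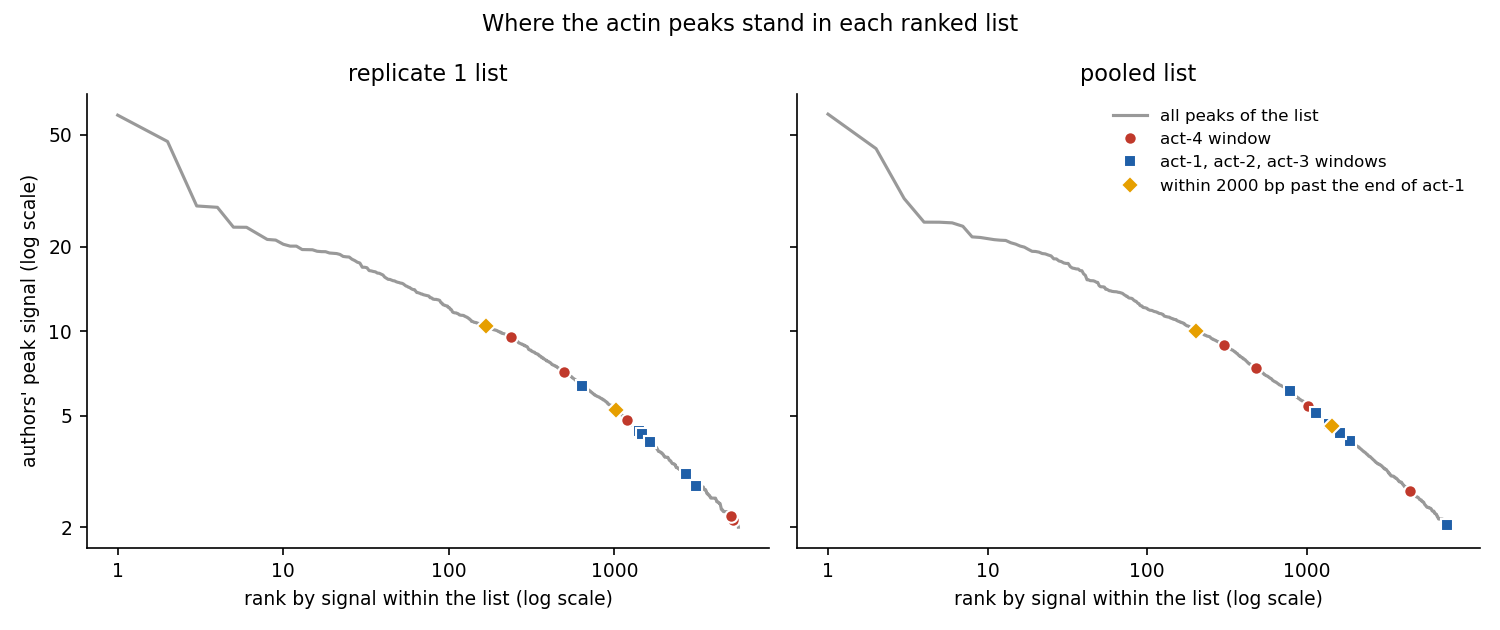
Authors' peak signal against rank within the list, both on log scales, for replicate 1 (left) and the pooled list (right). Grey is every peak of the list and symbols are actin peaks. The act-4 promoter peak stands at ranks 237 and 304, and the peak past act-1 stands above it at ranks 168 and 203.

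At act-5 (WBGene00000067, III:13604412-13606066, minus strand) no list had a summit in the window or near it. The nearest was 13199 bp from the gene in replicate 1, 13505 bp in the pooled list and 37364 bp in replicate 2. In replicate 2 the nearest summits to the other genes were also distant, at 40427 bp from act-4 and between 23861 bp and 31778 bp from the cluster genes. With 8.56% of protein-coding genes holding a replicate 2 summit, the empty replicate 2 windows do not set the actins apart from other genes.

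The copies are near-identical in coding sequence, which limits where reads can be placed, and this was measured on the reference. The coding sequences of act-1 and act-3 were 100% identical over 1131 bp. Those of act-4 were 94.2% identical to act-1 and act-3 and 91.9% to act-2, and 85.1% to act-5. None of the 50-base stretches of the act-1 and act-3 coding exons occurred once in the genome, against 88.2% of those of act-4, 68.1% of act-2 and 100% of act-5. In the 2000 bp upstream all 50-base stretches of the 5 genes occurred once. Each pooled actin peak held at least 99.7% such stretches. With 36-base stretches that lower bound was 94.9%, at the exon 2 peak of act-4. No source used here states the read length or how reads with several matches were treated. No list had a summit in the coding exons of act-1, act-2 or act-3, and the part of repeated sequence in that was not tested. The empty act-5 window held 99.1% or more single-copy stretches by either length.

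**Figure D3:**
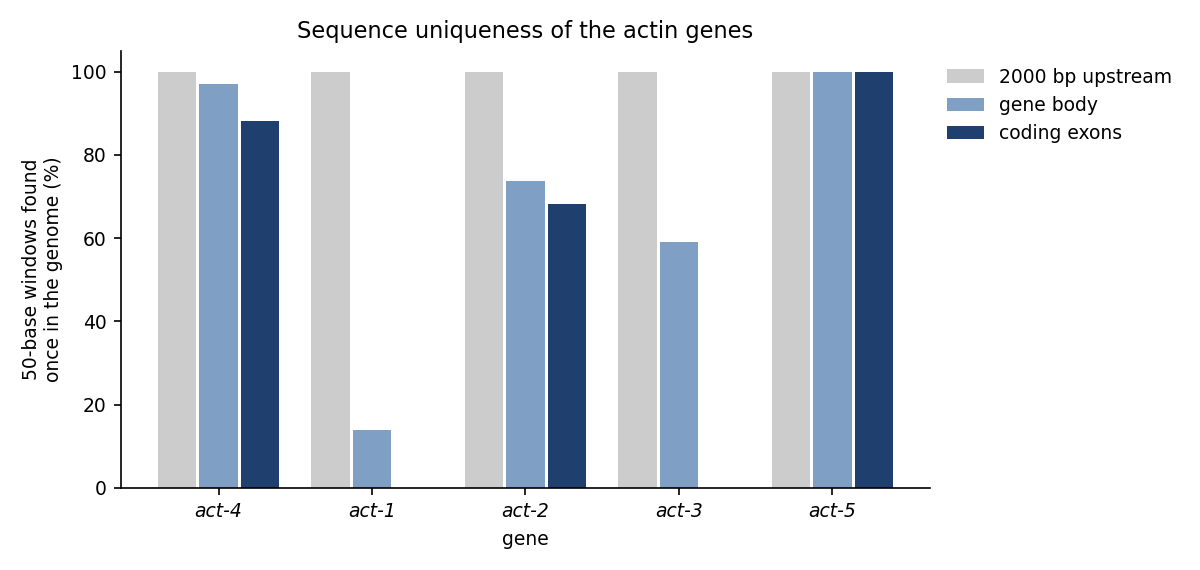
Share of 50-base stretches that occur once in WBcel235, on either strand, for the 2000 bp upstream, the gene body and the coding exons of each actin gene. Upstream bars are all at 100%, the coding exons of act-1 and act-3 are at 0%, and those of act-5 are at 100%.

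Each act-4 summit had a match to the PHA-4 consensus within 100 bp, which was not used to choose the gene. This held for 5 of 5 summits in replicate 1 and 4 of 4 in the pooled list, with 1 match each. Of the 6 cluster summits in windows 3 had a match in each list, at act-1 and at 2 of the act-3 summits. Over all peaks, 57.5% of replicate 1 summits and 54.4% of pooled summits had a match, rising to 65.1% and 64.9% among the strongest 1000. A match is thus common, and no test was made on so few peaks.

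The matches at act-4 were not centred on the summits. Their centres lay 57 bp, 46 bp and 47 bp from the 3 strongest. At the weaker summits they lay 18 bp (at 738 bp) and 28 bp (at 2439 bp) away in replicate 1. The distance was 83 bp (at 2384 bp) in the pooled list. Such distances were not measured over all peaks. At the promoter peak the match, ATAAATA, is centred 27 bp upstream of the annotated start and follows a t, so that it also reads as a TATA box, the core promoter element that sits just upstream of many starts. At 497 bp the match is GTCAACA, and at 1886 bp it is ACAAACA at the end of a run of alternating a and c. The stricter forkhead core TRTTTAC had 0 matches within 100 bp of the act-4 summits, and 0 at the cluster summits in windows, in either list. It was present at 11.6% of all replicate 1 summits and 10.1% of pooled summits. The peak past act-1 was the only actin peak examined with this core, as TGTTTAC centred 38 bp from its summit. The strongest upstream peaks of act-3 and act-2 had no consensus match in the windows examined.

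**Figure D4:**
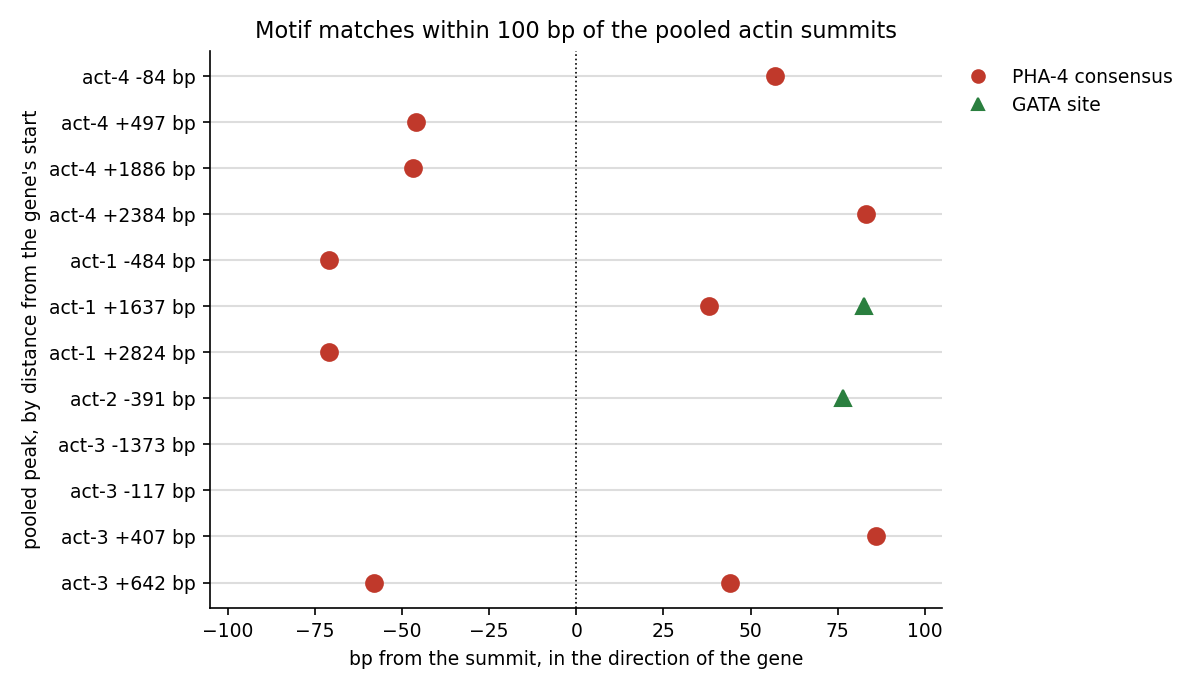
Positions of motif matches (bp from the summit, in the direction of the gene) within 100 bp of the pooled actin summits, named by gene and distance from the gene's start. Red circles are centres of PHA-4 consensus matches and green triangles centres of GATA sites. All 4 act-4 rows hold 1 circle each, none at the summit itself, and 3 rows of the cluster hold none.

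The act-4 promoter peak was rich in G and C, a property examined after its sequence was seen. Within 100 bp of that summit 60.2% of bases were G or C, against a median of 39.8% over all replicate 1 summits and 43.8% over the strongest 1000. Only 0.214% of replicate 1 summits and 0.232% of pooled summits had a share as high. The other act-4 summits ranged from 47.3% to 53.7% over both lists, and cluster summits in windows from 34.3% to 54.2%.

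Consensus matches were also counted upstream of the genes, where act-4 had slightly more than act-5. In the 2000 bp upstream act-4 had 7 matches, act-1 had 10, act-2 and act-3 had 8 each, and act-5 had 5, where the median gene had 7. In the 250 bp upstream act-4 and act-3 had 1 match, and act-1, act-2 and act-5 had none, while 61.7% of genes had at least 1. The GATA site WGATAR (W is A or T), bound by the GATA factors that run intestinal and epidermal genes, showed a wider range. In the 2000 bp upstream it had 1 match at act-4, 9 at act-1, 6 at act-2, 3 at act-3 and 13 at act-5, where the median gene had 5 and 0.876% of genes had as many as act-5. In the 250 bp upstream act-1 had 5 matches, a number reached by 0.245% of genes. These counts describe letters in the sequence and not binding.

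Several cluster summits coincided with annotated non-coding RNA genes. In replicate 1 these were T04C12.16 and T04C12.25 upstream of act-1, T04C12.15 and T04C12.21 upstream of act-3, and T04C12.29 past act-1. In the pooled list T04C12.18 and T04C12.24 at the act-2 summit were added. This made 3 of 8 cluster summits in replicate 1 and 4 of 8 in the pooled list, against 5.6% and 4.18% of all summits and 10.6% of the strongest 1000 in each list. No act-4 summit lay in such a gene. No summit in an actin window lay in the window of another protein-coding gene.

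Genes that act with actin were read from lists in 5 roles, all 64 of which matched the annotation. Of these, 34 had a summit in replicate 1 (53.1%, against 23.8% of all protein-coding genes), 7 in replicate 2 (10.9% against 8.56%) and 41 in the pooled list (64.1% against 30.7%). Their windows were long, with a median of 7581 bp against 4026 bp for all genes. Per kb they held 0.102 summits in replicate 1 against 0.06 over all windows, and 0.157 in the pooled list against 0.082. By role the densities ranged from 0.069 to 0.116 per kb in replicate 1 and from 0.138 to 0.176 in the pooled list. With the authors' q of 0.05 or less, 15 of the 64 genes had a pooled peak, against 6.74% of all genes.

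Among genes of actin assembly and turnover, 14 of 24 had a replicate 1 summit (against 23.8% of all genes) and 16 a pooled one (against 30.7%), in windows with a median of 5792 bp. Of the strongest 1000 peaks, replicate 1 had summits at 6 of them and the pooled list at 7, against 5.12% and 5.16% of all genes. The strongest stood at cas-1, which encodes a cyclase-associated protein that recycles actin monomers, with a signal of 13.45 and rank 71 in replicate 1 and 12.09 and rank 98 in the pooled list, upstream of its start. Others among the strongest 1000 of replicate 1 were wve-1 (signal 8.8, rank 295) and wsp-1 (7.49, rank 440), which activate the Arp2/3 complex that nucleates branched filaments. The Arp3 gene arx-1 (7.22, rank 487), the cofilin gene unc-60 (6.95, rank 533) and the formin gene frl-1 (6.73, rank 574) also had one. A further Arp2/3 subunit gene, arx-6, entered the strongest 1000 in the pooled list (5.79, rank 874). Weaker pooled peaks stood at the capping protein genes cap-1 (4.32) and cap-2 (2.56), at the Arp2/3 gene arx-7 (3.95), at the villin-like gene viln-1 (2.97) and at the formin genes fhod-1 (4.03) and cyk-1 (3.89). The replicate 2 list had 1729 peaks with a median signal of 2.32 and no q below 0.351, so its strongest 1000 include weak peaks. Among them, summits lay at 3 of the 24 genes, against 5.02% of all genes. These were unc-60 (3.01, rank 230), gsnl-1 (2.7, rank 424), which encodes a gelsolin-like severing protein, and the Arp2 gene arx-2 (2.69, rank 446). Of these only unc-60 had a summit in both replicates, with the summits at 401 bp upstream and 54 bp downstream of its start.

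Muscle thin filament genes other than actin had a summit in 3 of 13 in replicate 1 and in 4 of 13 in the pooled list. These shares, 23.1% and 30.8%, are close to the 23.8% and 30.7% of all genes. Their windows, with a median of 4005 bp, held 0.09 and 0.154 summits per kb, against 0.06 and 0.082 over all windows. Only unc-94 was among the strongest 1000 of replicate 1 and of the pooled list, 1 of 13 against 5.12% and 5.16% of all genes. It encodes tropomodulin, a cap of filament ends, and had signals of 7.96 (rank 374) in replicate 1 and 8.03 (rank 394) pooled. The tropomyosin gene lev-11 (3.73), the troponin T gene tnt-3 (2.63) and the troponin C gene tnc-2 (3.31) had weaker pooled peaks, and tni-1, unc-27, tni-3 and tni-4, all troponin I genes, had none in any list. Thick filament genes had a summit in 4 of 8 in replicate 1 (against 23.8% of all genes) and in 6 of 8 in the pooled list (against 30.7%), in windows with a median of 8941 bp. Per kb those windows held 0.069 summits in replicate 1, close to the 0.06 over all windows, and 0.138 in the pooled list against 0.082. No thick filament gene was among the strongest 1000 of any list, where 5.12%, 5.02% and 5.16% of all genes were (replicate 1, replicate 2 and pooled). The best was at the myosin light chain gene mlc-3 (4.41, rank 1567), followed by mlc-2 (3.64), myo-1 (3.0), myo-3 (2.9), myo-2 (2.12) and unc-54 (2.03).

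Genes of crosslinking and anchoring had a summit in 8 of 10 in both replicate 1 (against 23.8% of all genes) and the pooled list (against 30.7%). Their windows were the longest of the 5 lists, with a median of 14553 bp, and held 0.116 summits per kb in replicate 1 and 0.176 in the pooled list, against 0.06 and 0.082 over all windows. The beta-spectrin gene unc-70 had the highest pooled signal (9.15, rank 280). Also among the strongest 1000 were the alpha-spectrin gene spc-1 (6.58, rank 639), the filamin gene fln-2 (6.2, rank 758) and the heavy beta-spectrin gene sma-1 (5.78, rank 878). So was anc-1 (5.68, rank 916), whose product anchors nuclei to actin. These were 5 of 10 genes, against 5.16% of all genes. In replicate 1 it was 3 of 10 against 5.12%, with spc-1 at rank 1145 and fln-2 at rank 1166. The alpha-actinin gene atn-1 (5.28), the vinculin gene deb-1 (2.89) and zyx-1 (2.4) had weaker pooled peaks. In replicate 2 a summit lay at 2 of the 10 genes, against 8.56% of all genes. One of them, fln-2, had 3 summits, the best with a signal of 2.85 and rank 299. Genes of intestinal microvilli and terminal web, where the act-5 protein works, had a summit in 5 of 9 in replicate 1 (against 23.8% of all genes) and in 7 of 9 in the pooled list (against 30.7%). Their median window was 6297 bp, and none was among the strongest 1000 of replicate 1 or the pooled list, where 5.12% and 5.16% of all genes were. The best were eps-8 (5.39, rank 1031), ifb-2 (4.33) and erm-1 (3.99), which encode a capping and bundling protein, an intestinal intermediate filament and the ezrin-like linker of membrane to actin. The intermediate filament genes ifc-2 (3.47), ifc-1 (2.99) and ifd-1 (2.35) followed. In replicate 2 a summit lay at 1 of the 9 genes, against 8.56% of all genes. This was ifo-1, an organiser of intermediate filaments, with a signal of 3.28 and rank 132. Its best pooled signal, 3.16 at rank 3226, stood between those of ifc-2 and ifc-1. The genes ifd-2 and ifp-1, for further intermediate filament proteins, had no summit in any list.

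**Figure D5:**
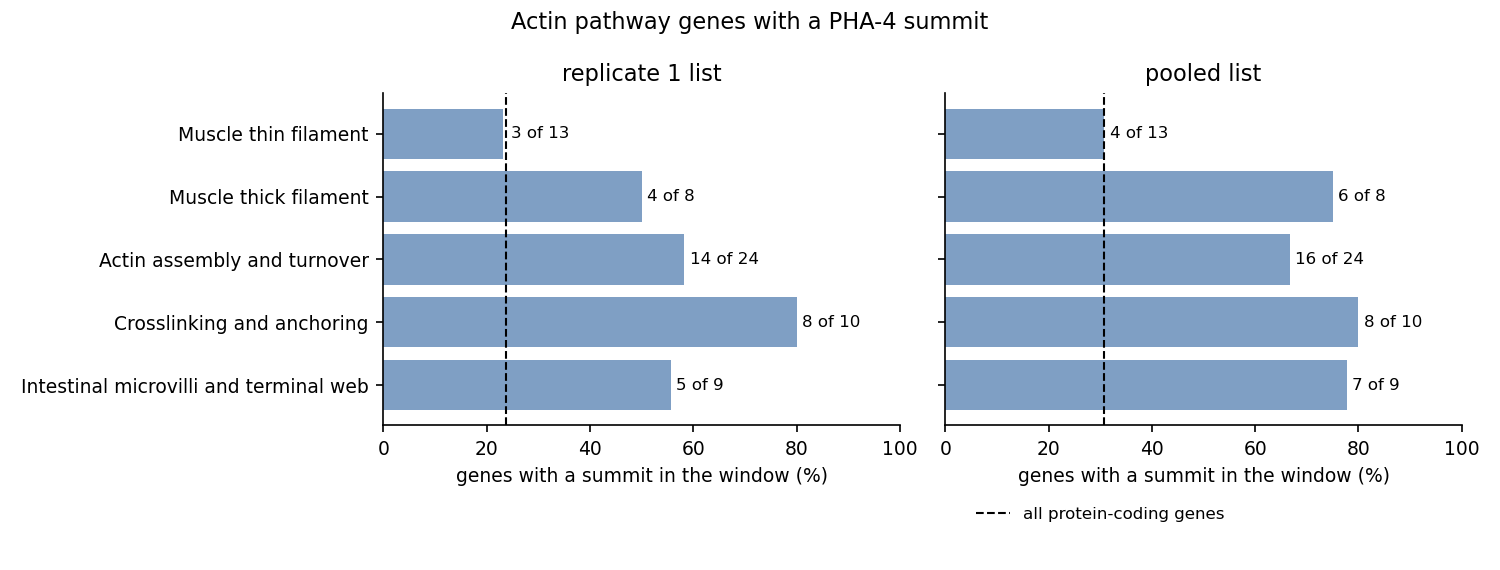
Share of genes in each list with a summit in the gene body or 2000 bp upstream, in replicate 1 (left) and the pooled list (right), with counts beside the bars. The dashed line is the share of all protein-coding genes, 23.8% and 30.7%. The thin filament bars lie near the line and the other bars lie above it, for windows that are on the whole longer.

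By best rank in replicate 1 and in the pooled list, the protein-coding genes outside the lists nearest to act-4 (ranks 237 and 304) were M18.6 and ddb-1, with ranks 244 and 301 each from the same peak. The next was epg-9, with ranks 251 and 314. Likeness was the sum of the absolute rank differences over 2 lists that share reads, 10 for the first pair and 24 for epg-9, and it says nothing of shared control.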

How the data were processed

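The samples were late embryos of 1 group in 2 biological replicates. Per the file listing, the authors deposited, in ce10 and ce11, relaxed lists of peaks with background, named as input for the irreproducible discovery rate (IDR), and a final list thresholded by it. Each ce11 relaxed list was made with 2 control alignments. No source used here names the aligner, the peak caller or the value of the IDR threshold. Per the file listing's narrowPeak format, the authors gave each peak a signal value and a −log10 q-value, used as deposited; depth per sample is unknown, so no interval is given. The ce10 lists were not used, since no coordinates were converted.

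Summits were assigned to Ensembl release 115 genes on WBcel235, whose chromosomes contain every ce11 peak. Motifs were counted within 100 bp of summits. Coding sequences were aligned with Biopython 1.88, and the 36-base and 50-base stretches of the windows were sought in the genome on both strands. Tables were made in pandas 2.3.3 with Python 3.11.15. The counting steps were tested on simulated data. Coordinates are 1-based.

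The members and lists were chosen with earlier results of these data known, and no test was run: with replicates of 1 group there is no contrast. Genes named are the actins, list members with a summit among the strongest 1000 peaks of any list, up to 6 others per list by best pooled rank, and the 3 genes nearest act-4 in rank; tni-1, unc-27, tni-3, tni-4, ifd-2 and ifp-1 were named after their values were seen. Windows, thresholds and the left-out replicate were varied.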

Additional observations from a re-analysis of the deposited data

How the results depend on the processing

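The pooled counts were 4 actin genes with a summit, 4 summits at act-4, 6 in the cluster, 0 at act-5 and 41 pathway genes. With 500 bp or 5000 bp upstream, with overlap in place of summits and with 2000 bp on both sides, each stayed within 1.5 times its value. The count for act-5 was 0 under every alternative run. Upstream sequence alone left 1 summit at act-4 and 22 of the 64 pathway genes. The share of all genes was not counted for that window, so nothing is read from the 22. The authors' q of 0.05 or less left 2 summits in the cluster and 15 pathway genes, against 6.74% of all genes. The strongest 1000 peaks left 2 actin genes and 13 pathway genes, against 5.16% of all genes. They left 2 summits at act-4 and 1 in the cluster. The authors' final list left 0 actin genes, 0 summits at act-4, 0 in the cluster and 0 pathway genes, against 0.055% of all genes. Leaving out a replicate, which means reading the list of the other alone, gave 0 (without replicate 1) and 4 (without replicate 2) actin genes, 0 and 5 summits at act-4, 0 and 6 in the cluster and 7 and 34 pathway genes. The shares of all genes in those lists were 8.56% and 23.8%. No pooled call without replicate 1 was made here. The best act-4 rank of 304 became 169 by the authors' q, where ties share a rank, and 237 without replicate 2. It has no value without replicate 1. The 4 consensus matches at act-4 became 2 within 50 bp, 7 over whole peaks, 0 with the stricter core and 5 without replicate 2. No paired analysis was possible because both samples belong to 1 group. The unknown depth limits every absence stated.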
